A study of Mus musculus with 12 samples.

Results

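Hippocampal CD11b+ cells of irradiated and sham-treated Balb/c mice were compared across 9120 genes, on 6 of the 12 Affymetrix arrays of the study. The members are the 3 arrays labelled Balb/c irradiated and the 3 labelled Balb/c sham, chosen by their labels, and each array holds the RNA of 1 female mouse. The irradiated mice received a single 10 Gy dose of X-rays at 6.5 weeks of age through a circular opening 1 cm wide over the forebrain, under ketamine and xylazine anaesthesia, with the eyes, nose and cerebellum shielded. Sham mice are labelled as sham-irradiated, with no dose given. Both groups were analysed at 10.5 weeks of age, 1 month later. Cells were sorted by flow cytometry as CD11b+, between 5000 and 10000 per animal, and their RNA had an integrity number above 7.4 and went through 2 rounds of linear amplification. The other 6 arrays are sham and irradiated C57BL/6 mice handled in the same way. CD11b marks microglia but also other myeloid cells, and the RNA is a bulk measure in which fewer cells of a type and less RNA per cell cannot be told apart.

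Microglia are the resident macrophages of the brain and survey the tissue through receptors for nucleotides, lipids and chemokines. Ionising radiation breaks DNA, and the tumour suppressor p53 then induces genes that hold the cell cycle or start cell death. Macrophages can also answer DNA damage and debris with type I interferon, which acts through its receptor and STAT proteins to switch on antiviral genes, many of them through a promoter motif called the interferon-stimulated response element. The values below are log2 GCRMA expression values, a change is the irradiated minus the sham group mean, and the error after a change is the standard error of the fit. A gene is called when its adjusted p in limma, after Benjamini-Hochberg adjustment over all 9120 genes, is under 0.05. All 12 arrays entered the fit, so that the 4 groups share 1 estimate of the spread, which is the spread between mice.

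The defining markers of microglia were bright on all 6 arrays. P2ry12, a nucleotide receptor of resting microglia, read 14.20, 14.02 and 14.32 on sham arrays 1 to 3 and 14.08, 13.95 and 14.16 on irradiated arrays 1 to 3, and the ranges overlapped (-0.11 ± 0.14, adjusted p = 0.681). Tmem119, a microglial surface protein, was at 14.16 ± 0.04 (SD, n = 3) in sham and 14.00 ± 0.09 in irradiated arrays (adjusted p = 0.359), with no overlap. The fractalkine receptor Cx3cr1 was at 14.13 ± 0.06 and 14.03 ± 0.08 (adjusted p = 0.657). Defining markers of T cells such as Cd3e, Cd3d and Cd3g, and of B cells such as Cd79a and Pax5, lay between 2.23 and 2.27 in both groups, close to the lowest values on the arrays. Of the T and NK cell markers 2 of 14 passed the filter, among them the granule protease Gzma at 2.42, 2.32 and 2.55 in sham and 8.17, 5.61 and 2.35 in irradiated arrays, and their summed level was 7.10 to 8.61 in sham and 6.03 to 9.03 in irradiated arrays. Of the B cell markers 4 of 9 passed, with a summed level of 11.93 to 12.27 in sham and 11.27 to 11.63 in irradiated arrays, and Blnk, an adaptor of B cell receptor signalling, fell by 0.61 on the log2 scale, a call lost without 7 single arrays in turn (adjusted p up to 0.138). The B cell factor Ebf1 did not pass, at 2.98 to 4.14 in sham and 4.94 to 5.22 in irradiated arrays.

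RNA quality was uneven among the irradiated arrays. The 3' minus 5' signal of Actb and Gapdh, which grows as RNA products get shorter, was 3.72, 3.54 and 3.81 on the sham arrays and 3.70, 4.82 and 4.21 on the irradiated arrays. Irradiated replicate 2 had the highest value, irradiated replicate 1 lay within the sham range, and the group difference of 0.55 gave p = 0.3 (exact permutation test, two-sided, n = 3 per group, where the smallest possible p is 0.1). The 18S ribosomal RNA control was 11.93, 12.32 and 12.31 in sham and 11.60, 10.48 and 11.47 in irradiated arrays, lower on each irradiated array than on each sham array (exact permutation p = 0.1, two-sided, n = 3). Irradiated replicate 2 was lowest here too. Across genes it correlated with replicates 1 and 3 at a mean r of 0.975, against 0.978 and 0.977 for those arrays.

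Irradiation changed 561 of 9120 genes in Balb/c cells, which is 6.15% of those tested. The 297 genes that rose (3.26%) and the 264 that fell (2.89%) were close in number but not in size. Of the rises, 188 were at least 2-fold, 63.3% of them, against 61 of the falls or 23.1%. The median change was 1.19 among rises and -0.76 among falls, beside -0.04 over all genes. The irradiated and sham arrays did not overlap for 560 of the 561 called genes, and over all genes 1170 (12.8%) had each irradiated array above each sham array and 1490 (16.3%) the reverse. An unadjusted p under 0.05 was found for 2082 genes.

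**Figure D1:**
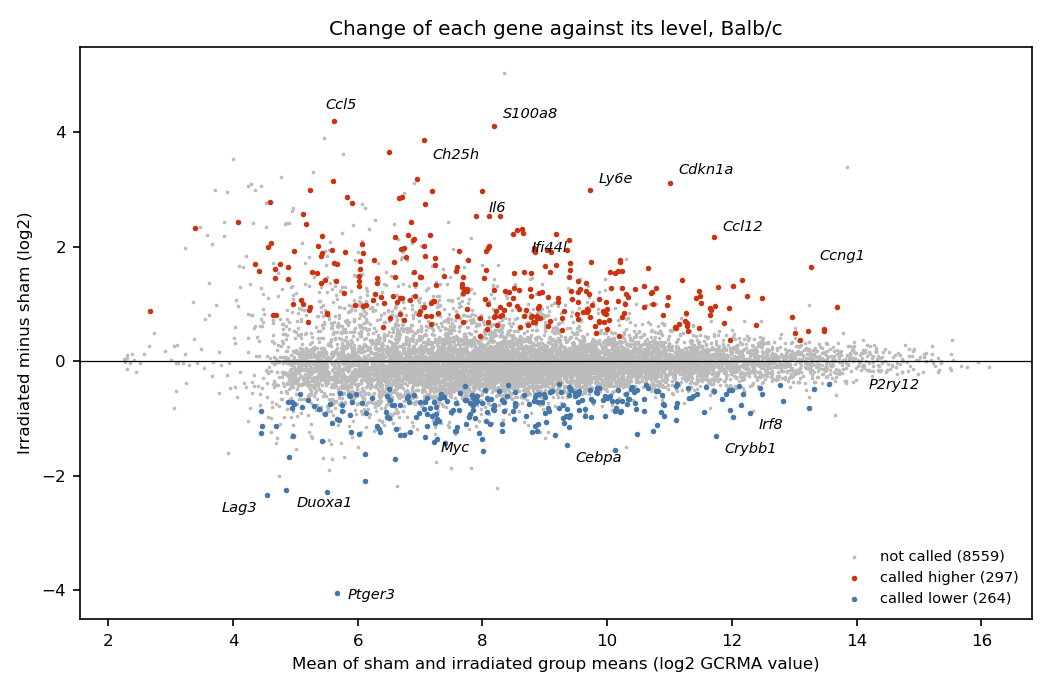
Each point is 1 of 9120 genes, with the mean of the sham and irradiated group means on the x axis (log2 GCRMA value) and irradiated minus sham on the y axis (log2). The 297 genes called higher (red) reach further from 0 than the 264 called lower (blue), apart from Ptger3 at -4.05, and most of the largest rises lie at low to middle expression levels.

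The number of calls depended on single arrays. Leaving out sham replicate 1 left 268 calls, sham replicate 2 218, irradiated replicate 2 337 and irradiated replicate 3 280. Without irradiated replicate 2, 301 of the 561 genes were called again, and the median size of the 561 changes was 0.92 against 0.94. For 43 of the genes that rose the sham mean was under 5, and for 20 of those that fell the irradiated mean was under 5, where sizes are rough because values approach the bottom of the scale.

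Among p53 targets, 11 of 25 tested genes rose, 44.0% of the list beside 3.26% of all genes. Cdkn1a, which encodes the cell cycle inhibitor p21, read 9.47, 9.30 and 9.60 in sham and 12.41, 12.58 and 12.72 in irradiated arrays, a rise of 3.12 ± 0.21 or 8.69-fold (adjusted p = 4.55e-05). Ccng1, cyclin G1, read 12.50, 12.29 and 12.54 against 14.17, 14.18 and 13.93, a rise of 1.65 ± 0.11 or 3.14-fold (adjusted p = 4.55e-05). For both genes the groups lay far apart in relation to their spread, and irradiated replicate 2 sat between or beside its partners. The list has 36 genes on the array, 25 of which passed the filter (above 5 on at least 3 arrays), and a median of 0.69. In limma 0 of them fell, with 3 below 0 at an unadjusted p under 0.05, and 1 fell without irradiated replicate 1. Among the rest that rose, Zmat3, an RNA-binding protein, was at 1.47 ± 0.19 (adjusted p = 0.00227), Trp53inp1, a cofactor of p53-driven cell death, at 1.41 ± 0.16 (adjusted p = 0.00124), and Rps27l, a ribosomal protein relative, at 0.98 ± 0.10 (adjusted p = 9.32e-04). Abhd4, a lipid hydrolase, rose by 0.85 ± 0.11 (adjusted p = 0.00267), though its other kept probe set changed by 0.32. Ephx1, which encodes microsomal epoxide hydrolase and was picked after its values were seen, rose by 2.31 ± 0.16 (adjusted p = 4.64e-05), from 7.30, 7.58 and 7.56 to 10.04, 9.54 and 9.77. Without irradiated replicate 2, 8 of the 25 p53 targets rose, and the same number rose in a fit that takes each array's 3' minus 5' value as a covariate.

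Of 16 cell cycle inhibitors and D cyclins tested, 3 rose: Cdkn1a, Ccnd2 and Rbl2. That is 18.8% of the list, beside 3.26% of all genes. Ccnd2, cyclin D2, read 7.02, 6.66 and 7.36 in sham and 9.69, 9.32 and 9.62 in irradiated arrays, 2.53 ± 0.38 or 5.77-fold higher (adjusted p = 0.00426). Rbl2, the retinoblastoma relative p130, rose by 0.93 ± 0.19 (adjusted p = 0.0168), a call lost without sham replicate 1 or 2 or irradiated replicate 2 or 3 (adjusted p up to 0.0687). The S phase list had 21 tested genes of 31 and a median of -0.29, and 2 of them fell, 9.52% beside 2.89% of all genes. Mcm5, a subunit of the replicative helicase, read 9.22, 9.33 and 8.99 against 8.37, 8.04 and 8.27 (-0.95 ± 0.14, adjusted p = 0.00435), and was at -0.77 with the covariate (adjusted p = 0.0664). Rfc5, a clamp loader subunit, fell by 0.71 on the log2 scale (adjusted p = 0.0226) but lost its call when any 1 of the 6 Balb/c arrays was left out (adjusted p up to 0.0718). Of 13 mitosis genes tested 1 rose (7.69%), the kinetochore gene Nuf2, at 0.84 ± 0.20 (adjusted p = 0.035), and its call was lost without sham replicate 2 or 3 or irradiated replicate 2 or 3 (adjusted p up to 0.106). The proliferation marker Mki67 read 7.99, 7.87 and 7.23 in sham and 8.49, 8.69 and 7.88 in irradiated arrays, and the ranges overlapped (0.66 ± 0.26, adjusted p = 0.168). In the DNA repair list the base excision scaffold Xrcc1 (-0.73 ± 0.18, adjusted p = 0.0391) and the end-joining subunit Xrcc6 (-0.49 ± 0.13, adjusted p = 0.0439) fell among 24 tested, 8.33% of the list. These calls were lost without 9 and 8 single arrays in turn (adjusted p up to 0.131 and 0.145). With the covariate, limma called 0 genes of the S phase, mitosis and DNA repair lists. The damage kinase Atm was at -0.65 (adjusted p = 0.248).

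Of 41 type I interferon effectors tested (51 on the array), 19 rose, 46.3% beside 3.26% of all genes. The list median was 0.75. In limma 0 fell, and 0 lay below 0 at an unadjusted p under 0.05. Ifit3, which restricts translation of viral RNA with other Ifit proteins, read 7.20, 6.10 and 6.60 in sham and 8.87, 9.43 and 9.23 in irradiated arrays, 2.54 ± 0.32 or 5.83-fold higher (adjusted p = 0.00219). Ifi44l, an interferon-induced protein, read 7.67, 7.70 and 7.24 against 9.84, 9.69 and 9.81, 2.24 ± 0.14 or 4.73-fold higher (adjusted p = 4.55e-05). The lowest irradiated array stood well above the highest sham array for both genes. Ly6e, an interferon-induced membrane protein that limits virus entry, read 8.33, 8.28 and 8.08 against 11.58, 10.61 and 11.48, 3.0 ± 0.22 or 7.98-fold higher (adjusted p = 4.64e-05), with irradiated replicate 2 the lowest of its group. Ifit1 rose by 2.99 ± 0.44 (adjusted p = 0.00391), Samd9l by 2.85 ± 0.41 (adjusted p = 0.00329), Usp18, which removes the modifier ISG15 from proteins, by 2.77 ± 0.39 (adjusted p = 0.00326), and Oas1a, which makes the activator of RNase L, by 2.2 ± 0.31 (adjusted p = 0.00329). Rtp4 rose by 1.97 ± 0.23 (adjusted p = 0.00136) and Slfn2 by 1.89 ± 0.25 (adjusted p = 0.00227). For 10 of the 41 the sham arrays were all at or below 5, so that they passed the filter through other arrays. Without irradiated replicate 2, 17 of the 41 were called, and with the covariate 10.

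The interferon-inducible GTPases, which attack the vacuoles of intracellular microbes, and the Ifi200 family of DNA-binding proteins held rises as well. Of 9 GTPases tested 7 rose (77.8%), with a median of 1.04. Of 6 Ifi200 genes 5 rose (83.3%), with a median of 2.01, beside 3.26% of all genes called higher. In 3 of these 6 Ifi200 genes and 1 of the 9 GTPases the sham arrays were all at or below 5, so that they passed the filter through other arrays. Gbp7 read 10.12, 9.95 and 10.26 in sham and 11.08, 11.53 and 11.35 in irradiated arrays, 1.21 ± 0.14 or 2.32-fold higher (adjusted p = 0.00136). Ifi47 rose by 2.01 ± 0.27 (adjusted p = 0.00274) and Irgm2 by 0.74 ± 0.14 (adjusted p = 0.013). Iigp1 rose by 2.86 ± 0.69 (adjusted p = 0.0366), with a call lost without 6 single arrays in turn (adjusted p up to 0.126 without sham replicate 2), and Gbp2 by 1.56 ± 0.29 (adjusted p = 0.0125; 0.0527 without sham replicate 2). Gbp2b, outside the fixed lists and picked after its values were seen, rose by 2.14 ± 0.38 (adjusted p = 0.00976). Without sham replicate 1, 4 of the GTPases were called and without sham replicate 2, 3. Without irradiated replicate 2 the count was 5, and with the covariate it was 2. Ifi204, a nuclear DNA sensor, read 4.19, 4.83 and 3.11 against 7.28, 7.56 and 6.70, 3.14 ± 0.44 or 8.81-fold higher (adjusted p = 0.00327). Mndal read 8.31, 7.44 and 8.49 against 10.53, 10.06 and 10.30, 2.22 ± 0.32 or 4.65-fold higher (adjusted p = 0.00346). Ifi207 rose by 1.81 ± 0.27 (adjusted p = 0.00442) and Ifi202b by 1.59 ± 0.20 (adjusted p = 0.00215). Ifi209 rose by 2.39 ± 0.50 (adjusted p = 0.019), but its other probe set changed by 0.09 and its call was lost without sham replicate 2 or 3 or irradiated replicate 2 or 3 (adjusted p up to 0.0773). The Ifi200 genes are near-identical neighbours, so that probe sets may share signal between them.

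The promoters of 4 of these genes are shown because they hold the response element in the reference genome. The searched motif was GAAANNGAAA, or TTTCNNTTTC on the other strand, in the 250 bases before the RefSeq gene start (GRCm38.p6, the C57BL/6J reference, so that Balb/c bases may differ). Capitals mark the match, and each sequence runs 5' to 3' on the strand of the gene. Ifit3 (chr19:34583279-34583528, plus strand) held 2 matches, which start 156 and 122 bases before the gene start. Gbp7 (chr3:142530086-142530335, plus strand) held 1 at 53 bases, Mndal (chr1:173879959-173880208, minus strand) 1 at 54 bases, and the chemokine gene Cxcl10 (chr5:92348890-92349139, minus strand) 1 at 213 bases.
Ifit3: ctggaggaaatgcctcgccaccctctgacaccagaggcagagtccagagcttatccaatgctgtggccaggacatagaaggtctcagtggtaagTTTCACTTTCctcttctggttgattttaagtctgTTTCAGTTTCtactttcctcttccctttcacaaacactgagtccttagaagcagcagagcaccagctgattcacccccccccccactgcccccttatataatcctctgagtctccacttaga
Gbp7: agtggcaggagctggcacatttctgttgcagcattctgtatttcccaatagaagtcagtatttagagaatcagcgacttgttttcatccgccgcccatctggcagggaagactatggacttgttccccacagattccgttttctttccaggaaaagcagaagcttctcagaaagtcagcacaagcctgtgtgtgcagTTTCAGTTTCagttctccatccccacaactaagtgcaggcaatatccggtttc
Mndal: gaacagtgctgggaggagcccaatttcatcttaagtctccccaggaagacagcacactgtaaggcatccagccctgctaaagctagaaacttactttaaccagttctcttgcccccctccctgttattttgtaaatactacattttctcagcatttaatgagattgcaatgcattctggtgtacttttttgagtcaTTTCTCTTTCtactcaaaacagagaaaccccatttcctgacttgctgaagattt
Cxcl10: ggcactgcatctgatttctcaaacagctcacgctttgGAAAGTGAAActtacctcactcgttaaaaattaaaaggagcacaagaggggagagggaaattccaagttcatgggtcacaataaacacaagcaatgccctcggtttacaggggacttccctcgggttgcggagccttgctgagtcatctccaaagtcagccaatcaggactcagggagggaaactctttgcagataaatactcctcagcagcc

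Of 7468 tested genes with a promoter sequence, 239 or 3.20% held this motif. It was found in 20 of 241 genes that rose (8.30%) and in 8 of 210 that fell (3.81%). In the 3 interferon lists 12 of the 25 genes that rose and have a sequence held it (48.0%), beside 6 of the 21 tested genes that were not called (28.6%). Among genes that rose outside those lists the share was 8 of 216 (3.70%), close to that of all genes. The genes with the motif included Ifit1, Oas1a, Igtp, Irgm2, Gbp2, Gbp2b, Ifi207 and Cybb. A motif of the transcription factor NF-kB was found in 28 of the 241 genes that rose (11.6%), 24 of the 210 that fell (11.4%) and 794 of all 7468 (10.6%), and Cxcl10 held 3 matches to it. These are matches of letters in a fixed window and no measure of binding.

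Among IRF and STAT factors and related signalling genes, 4 of 18 tested genes fell and in limma 0 rose, with 1 above 0 at an unadjusted p under 0.05. The falls were 22.2% of the list, beside 2.89% of all genes, and the list median was -0.23. Irf5, a factor for inflammatory cytokine genes, read 9.30, 9.60 and 9.32 in sham and 8.55, 7.99 and 8.29 in irradiated arrays (-1.13 ± 0.16, adjusted p = 0.00354). Irf8, a factor that sets microglial identity, read 12.86, 12.75 and 12.60 against 12.20, 11.72 and 11.59 (-0.90 ± 0.16, adjusted p = 0.0102). In both genes irradiated replicate 1 was the highest of its group, and the groups did not overlap. Stat5b fell by 0.41 on the log2 scale (adjusted p = 0.0464) and Socs3, an inhibitor of cytokine signalling, by 0.82 (adjusted p = 0.0493), calls that were lost without 11 and 10 single arrays in turn (adjusted p up to 0.141 and 0.153). Without any 1 of the 6 Balb/c arrays, C57BL/6 sham replicate 2 or 3 or C57BL/6 irradiated replicate 3, 2 falls were called, and with the covariate 0, with Irf5 and Irf8 among those lost. Irf9, which joins STAT proteins to bind the response element, was at 0.42 (adjusted p = 0.186) and its ranges overlapped. Among 20 nucleic acid sensors and Toll-like receptors Tlr3, a receptor for double-stranded RNA, rose by 0.58 ± 0.12 (adjusted p = 0.019), a call lost without sham replicate 1 or 2 or irradiated replicate 2 or 3 (adjusted p up to 0.0743). Tlr3 was the 1 call of that list, 5.0% beside 3.26% of all genes called higher.

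**Figure D2:**
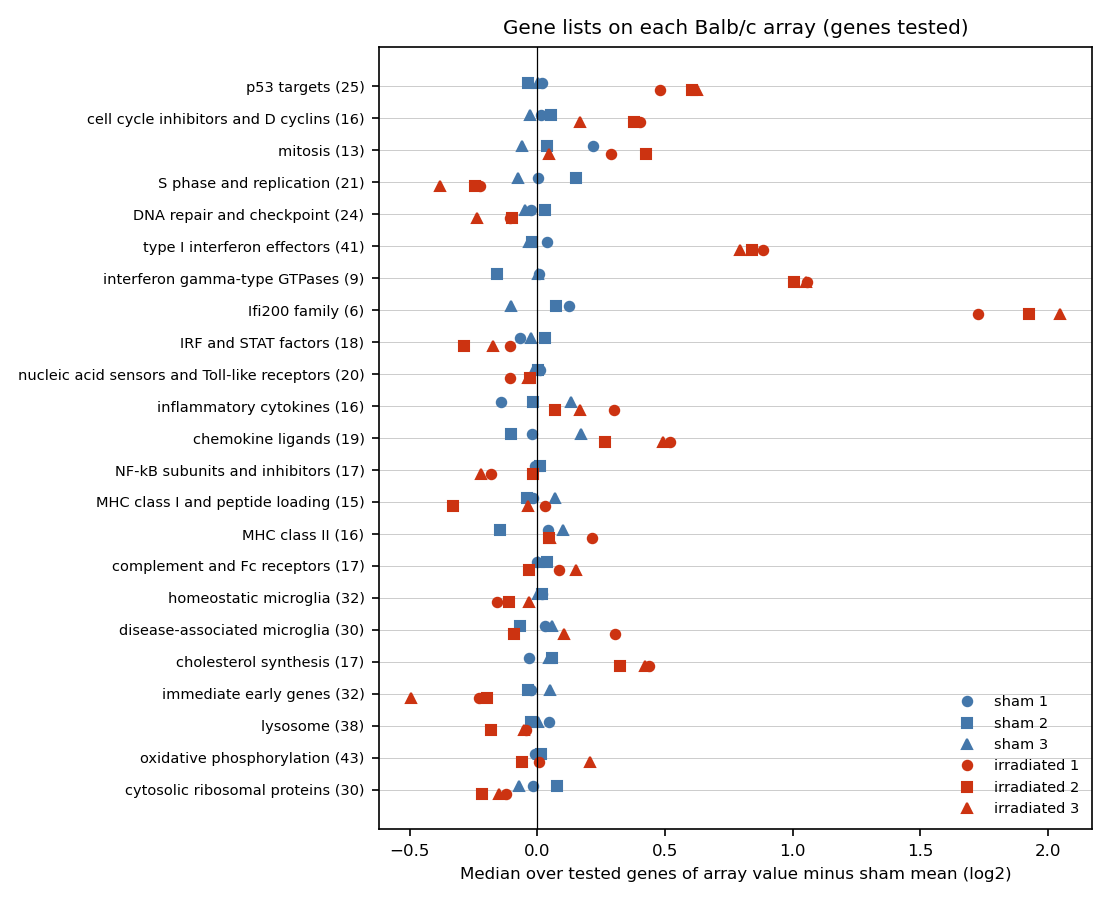
Each point is 1 of the 6 Balb/c arrays, placed at the median, over the tested genes of a list (number in brackets), of that array's value minus the sham mean (log2). The irradiated arrays (red) lie apart from the sham arrays (blue) and together for p53 targets, type I interferon effectors, GTPases and the Ifi200 family, while the lysosome and oxidative phosphorylation lists stay near 0, with irradiated replicate 3 at 0.20 in the latter.

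Il6 was the 1 inflammatory cytokine of 16 tested that rose (6.25%, beside 3.26% of all genes). It read 6.37, 6.74 and 6.44 in sham and 9.47, 9.49 and 9.49 in irradiated arrays, 2.97 ± 0.21 or 7.81-fold higher (adjusted p = 4.64e-05). The irradiated values of this cytokine, a signal of the acute phase response, were nearly identical. Tnf was at 1.06 (adjusted p = 0.147), Il1b at 0.53 (adjusted p = 0.586) and Il33, an alarmin, at 1.23 (adjusted p = 0.0561), and the ranges overlapped for Il1b. In limma 0 cytokines fell, with 1 below 0 at an unadjusted p under 0.05. Without irradiated replicate 2 the rises numbered 2, and 1 cytokine fell without irradiated replicate 3 or C57BL/6 irradiated replicate 2 or 3.

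Chemokine ligands of the CC and CXC classes rose in 4 of 19 tested genes, 21.1% beside 3.26% of all genes, with a list median of 0.45. In limma 0 fell, with 0 below 0 at an unadjusted p under 0.05. In 3 of the 19 the sham arrays were all at or below 5, so that they passed the filter through other arrays. Ccl5, which attracts T cells and monocytes, read 3.39, 3.84 and 3.35 in sham and 8.36, 7.31 and 7.49 in irradiated arrays, 4.19 ± 0.71 or 18.3-fold higher (adjusted p = 0.00862), the largest change among the genes that rose. Ccl8 read 4.74, 3.96 and 5.31 against 8.62, 7.69 and 8.68, 3.66 ± 0.44 or 12.6-fold higher (adjusted p = 0.00176). Sham values of both are low, so that these folds are rough. Ccl12, a mouse ligand of the monocyte receptor Ccr2, was far brighter and read 10.23, 10.79 and 10.87 against 12.96, 12.81 and 12.63, 2.17 ± 0.18 or 4.49-fold higher (adjusted p = 1.82e-04). Cxcl10, the interferon-induced ligand of Cxcr3, read 6.00, 5.73 and 5.78 against 6.87, 8.92 and 8.04, a rise of 2.11 ± 0.42 (adjusted p = 0.0167). Irradiated replicate 2 was its highest array, and the call was lost without sham replicate 2 or irradiated replicate 3 (adjusted p up to 0.0635). Cxcl9 was at 2.42 (adjusted p = 0.0763) and Cxcl2 at 1.35 (adjusted p = 0.114). Of 7 chemokine receptors Ccr1 rose (14.3%), by 1.72 ± 0.30 (adjusted p = 0.00946), from 8.68, 8.72 and 9.21 to 10.90, 10.83 and 10.06. Without C57BL/6 sham replicate 3 the receptor count was 2. Among 24 genes of the senescence-associated secretory list 5 rose, of which 4 are Il6, Ccl5, Ccl8 and Cxcl10, and the fifth, the matrix protease gene Mmp2, rose by 1.13 ± 0.18 (adjusted p = 0.00686). These 5 are 20.8% of that list, and without sham replicate 3 the count was 8.

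The alarmin pair S100a8 and S100a9, which together form calprotectin and are abundant in neutrophils, rose. S100a8 read 5.75, 6.11 and 6.56 in sham and 10.09, 11.33 and 9.31 in irradiated arrays, 4.10 ± 0.67 or 17.2-fold higher (adjusted p = 0.00697). S100a9 read 4.98, 5.73 and 5.39 against 8.70, 9.38 and 7.58, 3.19 ± 0.64 or 9.12-fold higher (adjusted p = 0.0171). Irradiated replicate 2 was the highest and replicate 3 the lowest of its group for both, and S100a9 lost its call without sham replicate 1 or irradiated replicate 2 (adjusted p up to 0.067). The neutrophil granule genes Ngp and Camp followed the same order of arrays in part. Ngp was at 2.23 on each sham array and at 7.63, 7.43 and 2.23 on the irradiated arrays, and Camp at 2.23 in sham and 5.91, 6.60 and 3.12 in irradiated arrays, with adjusted p of 0.243 and 0.286. These 4 are the tested genes of 11 neutrophil markers on the array. S100a8 and S100a9 were the called ones, 50.0% of the 4 beside 3.26% of all genes called higher. In 2 of the 4 the sham arrays were all at or below 5, so that they passed the filter through other arrays. Their summed level was 6.56, 7.04 and 7.19 in sham and 10.78, 11.78 and 9.71 in irradiated arrays (log2 of the sum of the linear values). Among the markers that did not pass the filter, Mpo, Elane and Cxcr2 were at 2.23 on all 6 arrays. Lcn2 was at 2.23 in sham and between 2.51 and 5.60 in irradiated arrays, and Ltf at 2.23 and between 2.27 and 3.35. Mmp8 stayed between 2.23 and 2.25, and the ranges of Mmp9 overlapped. The part of neutrophils in the rise of S100a8 and S100a9 was not tested.

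Some microglial identity genes were called, more of them lower than higher. All 32 on the array were tested, and 2 rose (6.25%) and 4 fell (12.5%), beside 3.26% and 2.89% of all genes. Of the 32, 8 lay above 0 and 24 below, and the list median was -0.10 beside -0.04 for all genes. Crybb1, a crystallin expressed in microglia, read 12.58, 12.43 and 12.16 in sham and 11.35, 10.88 and 11.04 in irradiated arrays (-1.30 ± 0.19, adjusted p = 0.00336). Bin1, a membrane-shaping protein, read 10.03, 9.85 and 9.62 against 9.08, 8.41 and 8.80 (-1.07 ± 0.19, adjusted p = 0.00916). Slco2b1, an organic anion transporter, fell by 0.48 on the log2 scale (adjusted p = 0.0189), a call lost without sham replicate 1 or 2 or irradiated replicate 2 (adjusted p up to 0.0726). Trem2, the lipid receptor behind the activated microglial state, fell by 1.02 on the log2 scale (adjusted p = 0.016), but its other probe set changed by -0.09 and the call was lost without sham replicate 2 (adjusted p = 0.0673). Gpr84, a receptor for medium-chain fatty acids, rose by 1.27 ± 0.30 (adjusted p = 0.0363) and Pros1, a bridging ligand for phagocytosis, by 0.63 ± 0.16 (adjusted p = 0.0424), and both calls were lost without 7 single arrays in turn (adjusted p up to 0.105 and 0.145). The count of rises was 0 without sham replicate 1 or 2, irradiated replicate 1 or 3, C57BL/6 sham replicate 2 or C57BL/6 irradiated replicate 1, and 1 without sham replicate 3 or irradiated replicate 2, and the count of falls was 2 without sham replicate 2. Sall1, a factor of microglial identity, was at -0.19 (adjusted p = 0.498), Csf1r, the survival receptor, at -0.08 (adjusted p = 0.751), and Aif1, which encodes IBA1, at -0.05 (adjusted p = 0.821), each with overlapping ranges. The lowest of 3 probe sets of Csf1r was at -1.27.

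Of 30 tested genes of disease-associated microglia 5 rose (16.7%) and 1, Trem2, fell (3.33%), beside 3.26% and 2.89% of all genes. The list median was 0.06. Cst7, which encodes the cysteine protease inhibitor cystatin F, read 5.33, 6.02 and 5.78 in sham and 8.59, 8.22 and 9.21 in irradiated arrays, 2.96 ± 0.27 or 7.81-fold higher (adjusted p = 3.20e-04). Ch25h, which makes 25-hydroxycholesterol, an interferon-induced sterol, read 5.14, 3.87 and 6.41 against 9.65, 8.74 and 8.59, 3.86 ± 0.56 or 14.5-fold higher (adjusted p = 0.00375). Sham arrays of Ch25h were spread widely, and the lowest irradiated array still lay above them. Fabp5, a fatty acid carrier, rose by 0.93 ± 0.19 (adjusted p = 0.0172), Cybb, the catalytic subunit of the phagocyte oxidase, by 1.41 ± 0.35 (adjusted p = 0.0408) and Lgals3, galectin-3, by 1.22 ± 0.32 (adjusted p = 0.0469). The call of Fabp5 was lost without sham replicate 1 or 2 or irradiated replicate 3 (adjusted p up to 0.0682), that of Cybb without 7 single arrays (up to 0.133) and that of Lgals3 without 9 (up to 0.149). The count of rises was 2 without sham replicate 1 or 2 or irradiated replicate 3 and 3 without sham replicate 3, irradiated replicate 1 or C57BL/6 irradiated replicate 2. Apoe, the lipid carrier of that state, was at -0.51 (adjusted p = 0.331) and Axl, a receptor for apoptotic cells, at 1.21 (adjusted p = 0.144).

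Genes of uptake and lipid handling showed single large changes. Msr1, a scavenger receptor, read 7.05, 6.79 and 8.30 in sham and 9.54, 9.79 and 9.47 in irradiated arrays, 2.22 ± 0.39 or 4.66-fold higher (adjusted p = 0.0102). It was 1 of 4 genes that rose among 23 tested in the uptake list, with Cd300lf (1.24 ± 0.26, adjusted p = 0.0213), a receptor for phosphatidylserine, and the bridging ligands Gas6 (0.79 ± 0.18, adjusted p = 0.0276) and Pros1. Cd300lf lost its call without sham replicate 1 or 2 or irradiated replicate 2 or 3 (adjusted p up to 0.0776) and Gas6 without 5 single arrays in turn (up to 0.1). The integrin Itgb3 fell by 2.28 on the log2 scale (adjusted p = 0.0142; up to 0.0565 without sham replicate 2 or irradiated replicate 3). Rises made up 17.4% of the uptake list and the fall of Itgb3 4.35%, beside 3.26% and 2.89% of all genes. The count of rises in the list was 1 without sham replicate 1 or 2 or irradiated replicate 3 and 2 without irradiated replicate 1. Pltp, a phospholipid transfer protein, rose by 0.83 ± 0.15 (adjusted p = 0.0125), though its other probe set changed by 0.41. Of 17 cholesterol synthesis genes limma called 0, with 6 above and 1 below 0 at an unadjusted p under 0.05, and the list median was 0.41. Without C57BL/6 sham replicate 1 or 3, 1 was called. Hsd17b7 was at 0.63 (adjusted p = 0.0807) and Insig1, the sterol sensor, at 0.71 (adjusted p = 0.0794), neither with overlapping ranges.

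Some antigen presentation genes were called, in both directions. In the class II list 12.5% rose and 6.25% fell, and in the class I list (15 tested) 6.67% did each. Of all genes 3.26% rose and 2.89% fell. Among 16 class II genes H2-DMb2 (1.12 ± 0.18, adjusted p = 0.00639) and H2-DMa (0.91 ± 0.21, adjusted p = 0.0285), the chains of the DM editor that loads peptides, rose. H2-Ob, a chain of DO, the inhibitor of DM, read 10.69, 10.94 and 11.03 in sham and 9.81, 10.08 and 10.26 in irradiated arrays (-0.83 ± 0.14, adjusted p = 0.00931). The called DM chains were thus higher and the called DO chain lower. The class II chain H2-Aa read 9.76, 8.67 and 9.80 against 11.52, 10.55 and 11.49, without overlap (1.78, adjusted p = 0.0564), and its probe sets ranged from 0.32 to 2.13. H2-DMa lost its call without 5 single arrays in turn (adjusted p up to 0.0892), and H2-DMb2 had another probe set at 0.50. The count of rises in the class II list was 1 without sham replicate 1, 2 or 3 or irradiated replicate 1 or 3. In the class I pathway the peptide transporter Tap1 rose by 0.89 ± 0.18 (adjusted p = 0.0167; 0.0525 without irradiated replicate 3), and Tapbpl, an editor of peptide loading, fell by 0.71 on the log2 scale (adjusted p = 0.0496), a call lost without 10 single arrays (up to 0.15). Of 17 complement and Fc receptor genes the anaphylatoxin receptor genes rose, C5ar1 by 1.60 ± 0.21 (adjusted p = 0.00233), from 3.52, 4.34 and 3.73 to 5.31, 5.72 and 5.38, and C3ar1 by 0.67 ± 0.15 (adjusted p = 0.0282), a call lost without 5 single arrays (up to 0.0946) and with another probe set at 0.29. These 2 are 11.8% of that list. C5ar1, with its sham arrays all below 5, passed the filter through other arrays.

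Prostaglandin signalling held the largest fall. Ptger3, a receptor for prostaglandin E2, read 7.85, 7.51 and 7.71 in sham and 3.25, 4.61 and 3.06 in irradiated arrays, 16.6-fold lower (-4.05 ± 0.36, adjusted p = 2.75e-04). Irradiated replicate 2 was its highest irradiated array, and with all irradiated values under 5 the fold is rough. Pla2g4a, the phospholipase that frees arachidonic acid, rose by 1.31 ± 0.17 or 2.47-fold (adjusted p = 0.00219), from 11.31, 11.39 and 11.41 to 12.63, 12.99 and 12.42. No other gene of the 12 tested in that list was called, so that 8.33% rose and 8.33% fell, beside 3.26% and 2.89% of all genes.

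**Figure D3:**
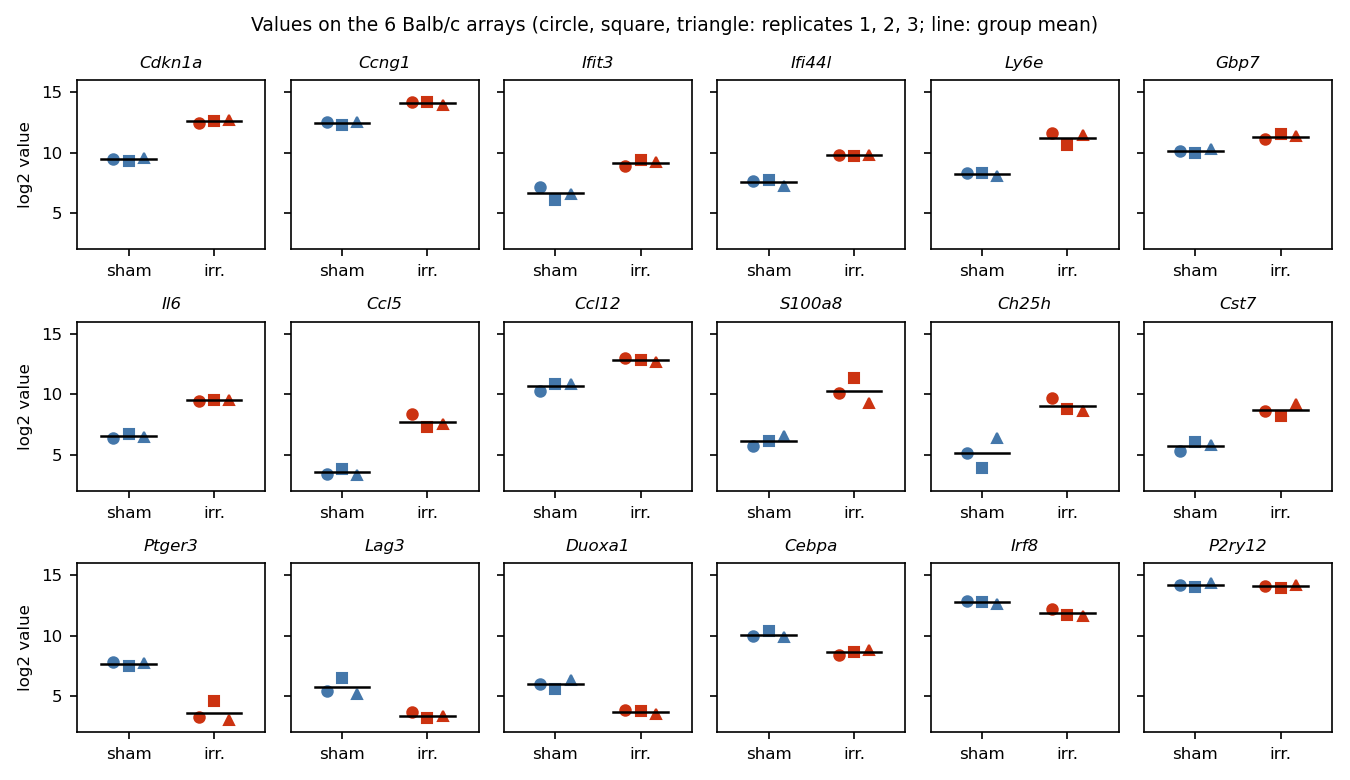
Each panel shows the log2 GCRMA values of 1 gene on the 3 sham (blue) and 3 irradiated (red) Balb/c arrays, with a line at the group mean. The groups do not overlap in any panel but that of P2ry12, and the irradiated values of Il6 and Ifi44l lie closest together, while those of S100a8 and Ptger3 spread the most.

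Beside Ptger3 and Itgb3, the falls of over 4-fold included Lag3, an inhibitory receptor for MHC class II, at -2.34 ± 0.31 (adjusted p = 0.00228), and Duoxa1, the maturation factor of a dual oxidase, at -2.26 ± 0.18 (adjusted p = 8.73e-05). Lag3 read 5.40, 6.53 and 5.22 in sham and 3.65, 3.17 and 3.32 in irradiated arrays. Duoxa1 read 5.99, 5.58 and 6.37 against 3.82, 3.79 and 3.55. Both had irradiated means under 5, so that the size of the fall is rough. Gp9, a platelet glycoprotein gene, fell by 2.09 on the log2 scale (adjusted p = 0.00727), Rcc2, a chromosome condensation regulator, by 1.71 (adjusted p = 0.00931) and Tnfrsf17, the receptor BCMA, by 1.67 (adjusted p = 0.0054). Col6a3, a collagen VI chain, fell by 1.57 (adjusted p = 0.013; 0.0542 without sham replicate 2). Amz1, Nectin2 and Dnajc16 fell by 1.63, 1.39 and 1.42 (adjusted p = 0.0332, 0.0309 and 0.0471), with calls lost without 5, 4 and 11 single arrays in turn (up to 0.106, 0.11 and 0.156). Csmd3, picked after its values were seen, fell by 1.28 (adjusted p = 0.00224), from 11.18, 11.25 and 10.94 to 9.64, 9.90 and 10.00.

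Several transcription factors of myeloid cells and of the early response fell. Cebpa, a factor of myeloid differentiation, read 9.98, 10.40 and 9.87 in sham and 8.41, 8.65 and 8.80 in irradiated arrays (-1.47 ± 0.22, adjusted p = 0.00393). Prdm1, which encodes the repressor BLIMP1, fell by 1.42 on the log2 scale (adjusted p = 0.00393). Batf3, a factor of dendritic cell development, read 8.09, 8.28 and 8.14 against 6.98, 6.88 and 6.98 (-1.23 ± 0.13, adjusted p = 0.00107). Of 32 immediate early genes tested 6 fell, 18.8% beside 2.89% of all genes, with a list median of -0.22. In limma 0 of them rose, with 2 above 0 at an unadjusted p under 0.05. Myc read 8.56, 8.89 and 8.58 against 7.66, 7.33 and 6.96 (-1.36 ± 0.18, adjusted p = 0.00234). Junb, a subunit of AP-1, fell by 1.16 (adjusted p = 0.0125), Rgs1, a regulator of G protein signalling, by 0.97 (adjusted p = 0.0104) and Zfp36, which destabilises cytokine mRNA, by 0.70 (adjusted p = 0.00945). Klf2 fell by 1.21 (adjusted p = 0.0252), a call lost without sham replicate 1, 2 or 3 or irradiated replicate 3 (up to 0.0889), and Atf3 by 1.54 (adjusted p = 0.041), lost without 7 single arrays (up to 0.129). Without irradiated replicate 2 the count was 6, and with the covariate it was 1. Jdp2, a repressor of AP-1 sites that was picked after its values were seen, rose by 2.00 ± 0.37 (adjusted p = 0.0119). Among NF-kB subunits and inhibitors Tnfaip3, the inhibitor A20, was the 1 of 17 that fell (-0.61 ± 0.12, adjusted p = 0.0181), with a call lost without sham replicate 1 or irradiated replicate 2 or 3 (up to 0.0749). That is 5.88% of the list, beside 2.89% of all genes. The falls in that list numbered 3 without sham replicate 3 and 2 without C57BL/6 irradiated replicate 2.

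Lists of housekeeping processes held few calls. Limma called 0 of 38 lysosomal genes (0 above and 5 below 0 at an unadjusted p under 0.05), 0 of 43 oxidative phosphorylation genes (2 and 2), 0 of 32 proteasome genes (1 and 2), 0 of 17 heat shock genes (1 and 2) and 0 of 18 genes of the unfolded protein response (0 and 3). Their medians lay between -0.08 and 0.08. Without irradiated replicate 1, 1 lysosomal and 1 oxidative phosphorylation gene fell, and without irradiated replicate 3, 1 unfolded protein response gene fell. Of 30 cytosolic ribosomal protein genes 1, Rps27l, was called, as a rise (3.33% beside 3.26% of all genes). The list median was -0.18, with 5 genes above and 25 below 0 (1 and 6 at an unadjusted p under 0.05). Each irradiated array lay below each sham array in 12 of the 30, and the reverse held in 2, beside 16.3% and 12.8% of all genes. In glycolysis the glucose transporter gene Slc2a1 rose by 0.77 ± 0.16 (adjusted p = 0.0216), a call lost without sham replicate 1 or 2 or irradiated replicate 2 or 3 (up to 0.0761). It was the 1 called of 19, 5.26% beside 3.26% of all genes called higher. Without C57BL/6 sham replicate 1, 2 glycolysis genes fell.

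Some markers of cells other than parenchymal microglia rose. Summed levels here are the log2 of the sum of the linear values of a list's tested genes. Of 8 recruited monocyte markers 3 rose, S100a6 (1.49 ± 0.29, adjusted p = 0.0142), Cd44 (1.34 ± 0.33, adjusted p = 0.04) and Fn1 (0.89 ± 0.18, adjusted p = 0.0164), and the summed level was 9.84 to 10.16 in sham and 10.86 to 11.34 in irradiated arrays. The monocyte receptor Ccr2 read 8.55, 7.95 and 8.33 against 10.02, 9.10 and 9.24, without overlap (1.17, adjusted p = 0.124). Of 13 markers of border-associated macrophages, which line vessels and meninges, 4 rose: Dab2 (1.28 ± 0.26, adjusted p = 0.0167), F13a1 (1.17 ± 0.24, adjusted p = 0.0198), Folr2 (1.92 ± 0.48, adjusted p = 0.0425) and the mannose receptor Mrc1 (0.97 ± 0.25, adjusted p = 0.0443). Their summed level was 13.51 to 13.70 in sham and 14.06 to 14.47 in irradiated arrays. The calls were 37.5% of the monocyte and 30.8% of the border macrophage list, beside 3.26% of all genes called higher. Monocyte calls numbered 0 without sham replicate 2 and 1 without sham replicate 1 or irradiated replicate 2 or 3. Border macrophage calls numbered 0 without sham replicate 1 or 2 or irradiated replicate 3, 1 without sham replicate 3 and 2 without irradiated replicate 1, C57BL/6 sham replicate 1 or C57BL/6 irradiated replicate 1 or 2. Across these 7 genes the adjusted p reached 0.142 (Folr2) when 1 array was left out. With the covariate both counts were 0, while the changes lay between 0.75 (Fn1) and 2.23 (Folr2). The monocyte genes Ms4a3 and F10 were at 2.23 on all 6 arrays, and Siglec1 of border macrophages was at 2.23 as well.

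Astrocyte and vessel markers also held rises. Of 14 astrocyte markers 4 rose, with a median of 0.81: Gfap, the intermediate filament of reactive astrocytes (1.59 ± 0.38, adjusted p = 0.036), the water channel Aqp4 (1.28 ± 0.32, adjusted p = 0.0394), the factor Sox9 (1.01 ± 0.26, adjusted p = 0.0463) and the connexin Gja1 (0.95 ± 0.21, adjusted p = 0.0279). Of 12 endothelial and pericyte markers 3 rose, with a median of 0.92: the pericyte genes Rgs5 (1.10 ± 0.24, adjusted p = 0.0231) and Pdgfrb (0.99 ± 0.18, adjusted p = 0.0101) and the endothelial transporter Slco1a4 (1.01 ± 0.22, adjusted p = 0.0266). The calls were 28.6% of the astrocyte and 25.0% of the vessel list, beside 3.26% of all genes called higher. Summed levels were 15.06 to 15.32 in sham and 15.62 to 16.10 in irradiated arrays for astrocytes. For vessels they were 13.10 to 13.83 and 14.22 to 14.50, so that neither overlapped. Astrocyte calls numbered 0 without sham replicate 1 or 2 or irradiated replicate 3 and 1 without irradiated replicate 1 and 2 without C57BL/6 irradiated replicate 1, and vessel calls 1 without sham replicate 2 or irradiated replicate 2 or 3. Across the 7 genes the adjusted p reached 0.145 (Sox9) when 1 array was left out, and Pdgfrb kept its call throughout. With the covariate both counts were 0, while the changes were 1.90 for Gfap, 1.53 for Aqp4, 1.30 for Sox9, 0.89 for Gja1, 1.02 for Rgs5, 0.99 for Pdgfrb and 0.89 for Slco1a4. The defining endothelial gene Pecam1 was at 2.23 on all 6 arrays. Oligodendrocyte markers had a median of 0.08 with 0 of 12 called in limma (0 above and 1 below 0 at an unadjusted p under 0.05), and neuronal markers a median of -0.03 with 0 of 9 (0 and 0). Atp13a5, Gucy1a1 and Mmrn2, picked after their values were seen, rose by 1.98 ± 0.30, 2.00 ± 0.32 and 2.05 ± 0.47 (adjusted p = 0.00476, 0.00652 and 0.03), the last with a call lost without sham replicate 2 or 3 or irradiated replicate 1 or 2 (up to 0.104).

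Choroid plexus genes varied between single arrays. Ttr, transthyretin, the main secreted protein of that tissue, read 10.77, 10.04 and 15.65 in sham and 15.96, 14.69 and 15.96 in irradiated arrays (adjusted p = 0.447), so that sham replicate 3 was as bright as the irradiated group. Folr1 was at 7.31 and 7.57 on irradiated arrays 1 and 3 and at 2.61 on replicate 2, with 2.66 to 2.89 in sham. Kl (6.92, 3.08 and 7.31) and Clic6 (7.75, 2.36 and 7.62) kept that pattern over irradiated arrays 1 to 3. The ependymal gene Tmem212 read 6.69, 4.54 and 5.68 against 7.91, 8.29 and 8.0. It was the 1 called of 6, 16.7% beside 3.26% of all genes called higher. Its change was 2.43 ± 0.56 (adjusted p = 0.0317), a call lost without 5 single arrays in turn (up to 0.102). The cilia genes Cfap54 and Hoatz, the former picked after its values were seen, rose by 2.43 ± 0.58 and 2.86 ± 0.64 (adjusted p = 0.0349 and 0.0276), each with a call lost without 5 single arrays (up to 0.121 and 0.102). Ano1, a chloride channel gene among the largest rises, was at 2.77 ± 0.52 (adjusted p = 0.013; 0.0527 without sham replicate 2). The part of these cell types in the interferon, chemokine and lipid changes was not tested.

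**Figure D4:**
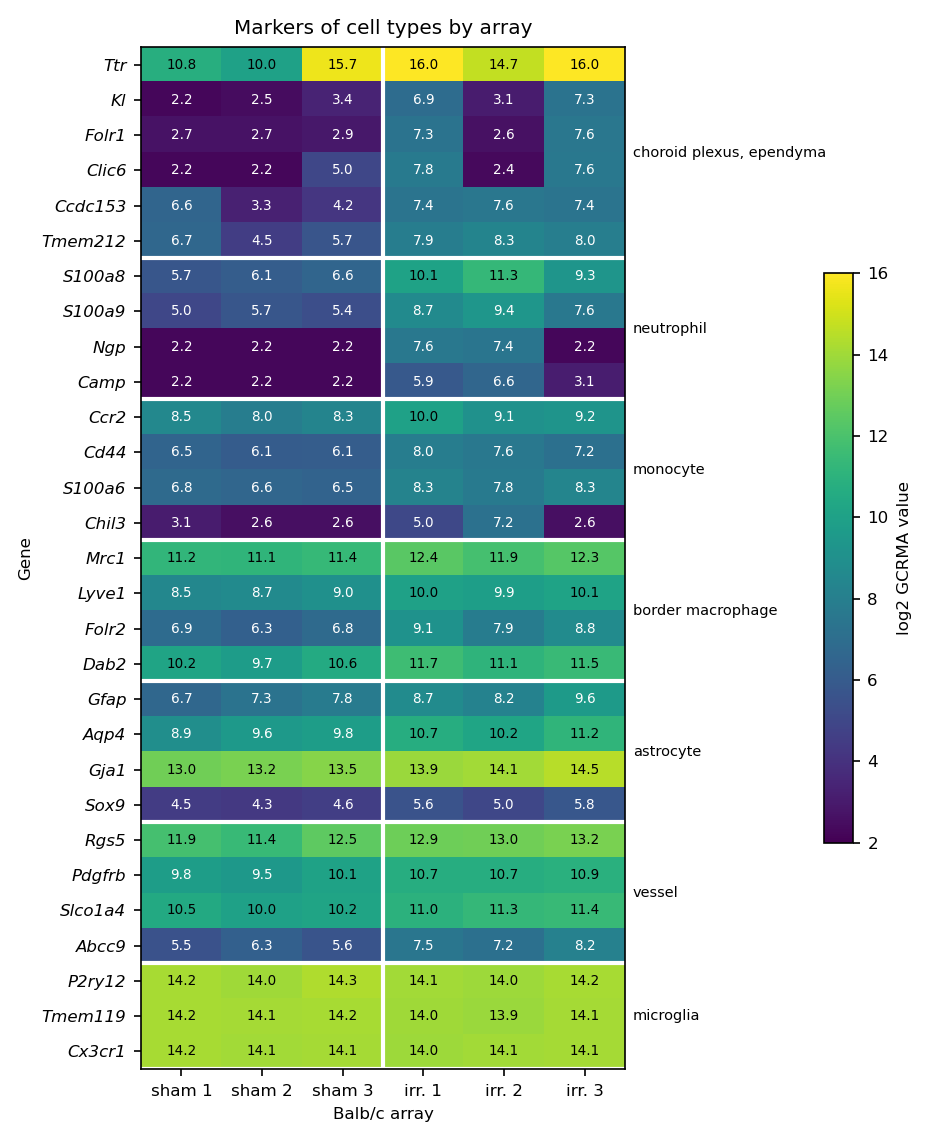
Rows are marker genes of 6 other cell types and 3 microglial genes, columns are the 6 Balb/c arrays, and colour and number give the log2 GCRMA value. Microglial genes stay near 14 throughout, monocyte, border macrophage, astrocyte and vessel markers are higher in irradiated arrays for most rows, and choroid plexus and neutrophil rows differ between arrays of 1 group.

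C57BL/6 mice served to show where the Balb/c response differs. Of the 561 Balb/c calls 149 (26.6%) were also called in C57BL/6, where they make up 44.5% of 335 calls (3.67% of genes tested), and 148 had the same direction, 95 higher and 53 lower. The strains share no arrays, so that these calls come from separate mice but 1 common estimate of the spread. A test of the difference itself called 7 genes, 0.0768% of those tested (735 at an unadjusted p under 0.05). Ifi44l rose by 2.24 ± 0.14 in Balb/c and was at 0.05 ± 0.14 in C57BL/6, where its means were 2.29 and 2.35, close to the bottom of the scale (difference 2.19 ± 0.20, adjusted p = 0.00365). Il6 rose by 2.97 ± 0.21 in Balb/c, from 6.52 to 9.48, and was at 0.08 ± 0.21 in C57BL/6, from 9.35 to 9.43 (difference 2.88 ± 0.30, adjusted p = 0.00609). Ly6e went from 8.23 to 11.23 in Balb/c and from 11.23 to 11.76 in C57BL/6 (difference 2.47 ± 0.31, adjusted p = 0.0165), and Chsy1, a chondroitin synthase, rose by 1.02 ± 0.12 to 12.02 in Balb/c and went from 13.19 to 13.06 in C57BL/6 (difference 1.15 ± 0.17, adjusted p = 0.0498). For Il6, Ly6e and Chsy1 the C57BL/6 sham mean was thus near or above the Balb/c irradiated mean.

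In the other direction Mcm5 fell in Balb/c by 0.95 on the log2 scale and rose by 0.82 ± 0.14 in C57BL/6 (difference -1.77 ± 0.20, adjusted p = 0.0101). Oasl2, an oligoadenylate synthetase relative, read 2.23 on each sham array and 3.11 on each irradiated array in Balb/c, close to the bottom of the scale, and rose by 2.71 ± 0.17 in C57BL/6, from 3.14 to 5.85 (difference -1.82 ± 0.24, adjusted p = 0.0203). D630023F18Rik stayed between 2.23 and 2.33 in Balb/c, at the bottom of the scale, and went from 2.23 to 6.69 in C57BL/6 (difference -4.42 ± 0.59, adjusted p = 0.0203). Ifi44l and Il6 kept the difference call whichever array was left out. Mcm5 lost it without sham replicate 1 (adjusted p = 0.0577), and Ly6e, Oasl2, D630023F18Rik and Chsy1 lost it without 7, 9, 10 and 11 single arrays in turn (up to 0.0697, 0.0925, 0.0925 and 0.185). The count of such calls was 2 without Balb/c sham replicate 1, 3 without Balb/c sham replicate 2, C57BL/6 sham replicate 1 or C57BL/6 irradiated replicate 3, and 4 without Balb/c irradiated replicate 3 or C57BL/6 sham replicate 2. Large rises seen in 1 strain do not make a difference by themselves: S100a8 was at 4.10 in Balb/c and 0.21 in C57BL/6, but the difference of 3.89 ± 0.95 was not called (adjusted p = 0.323), and Mki67 was at 0.66 and 2.94 (difference -2.28 ± 0.37, adjusted p = 0.0822).

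Irradiated replicate 2, the array with the highest 3' minus 5' signal, was the furthest from sham of the 3 irradiated arrays in 34.9% of called genes, beside 26.6% for replicate 1 and 38.5% for replicate 3. Over all genes it was the highest or lowest of the 6 arrays in 39.3%, beside 30.5% and 35.6%. By direction, it was the lowest of the 3 irradiated arrays for 41.7% of the genes that fell and the highest for 29.0% of those that rose, against 22.3% and 30.3% for replicate 1 and 36.0% and 40.7% for replicate 3. Without it, 190 genes rose and 147 fell. A fit with the 3' minus 5' signal of each array as a covariate called 104 genes, 69 higher and 35 lower, and 98 of them were among the 561. Cdkn1a was at 2.93 with that covariate (adjusted p = 0.00118), Ccng1 at 1.60 (adjusted p = 0.00118), Il6 at 2.98 (adjusted p = 0.00157), Ly6e at 3.41 (adjusted p = 1.44e-04), Cst7 at 3.20 (adjusted p = 0.00343) and Ptger3 at -4.79 (adjusted p = 1.51e-04). The named genes include those added after their values were seen. Of the 133 called among them, 46 stayed called with the covariate, including Ifit3, Ifi204, Ccl8, Ccl12, Ch25h, Duoxa1, Myc and Cebpa. In the other 87 the call was lost, with a median size of 1.11 with the covariate against 1.16 without it, and in 32 of them the size was at least as large with it. Among the 87, Ccl5 was at 4.39 (adjusted p = 0.0682), S100a8 at 3.45 (adjusted p = 0.0966), Crybb1 at -1.11 (adjusted p = 0.0537) and Irf8 at -0.71 (adjusted p = 0.114). The irradiated group held the 2 highest 3' minus 5' values, so the covariate varies in part with irradiation.

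**Figure D5:**
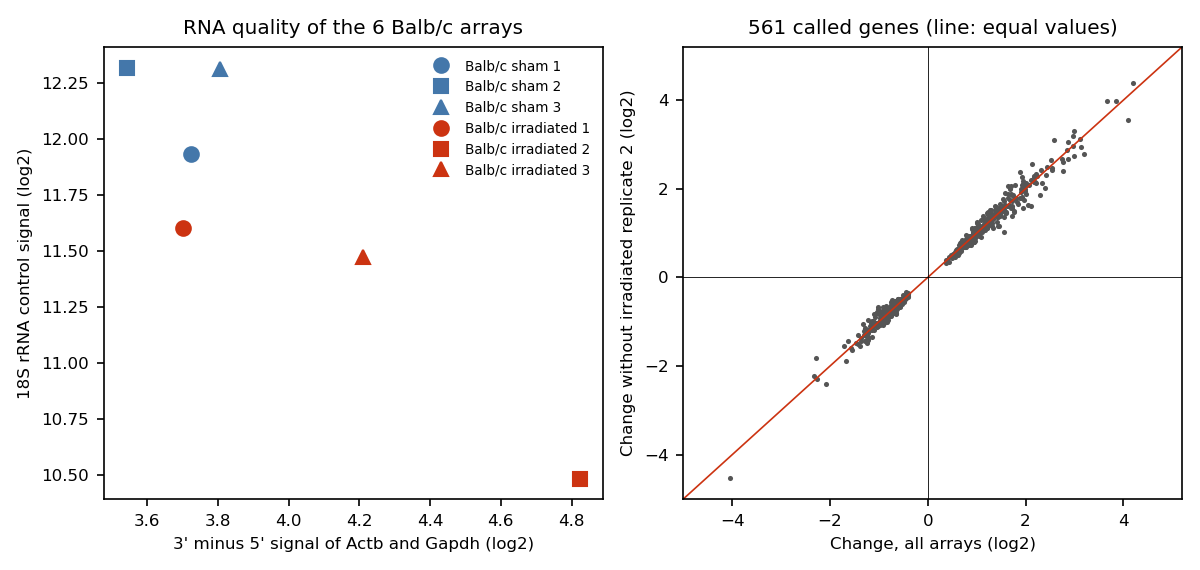
Left, the 3' minus 5' signal of Actb and Gapdh (x axis, log2) against the 18S ribosomal RNA control (y axis, log2) on the 6 Balb/c arrays, where irradiated replicate 2 stands apart at 4.82 and 10.48. Right, the change of the 561 called genes with all arrays (x axis, log2) and without irradiated replicate 2 (y axis, log2), beside a line of equal values. The genes were called with that array included and 560 of 561 had no overlap between the groups, so the plot is no check of their direction.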

How the data were processed

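RNA of sorted CD11b+ hippocampal cells was hybridised to 12 Affymetrix arrays, 3 for each strain and treatment, and the 6 Balb/c arrays are described. The authors deposited log2 values. The submitters' processing notes name GCRMA as the tool, and its version is not given in the sources used here. Sorted values agree between arrays, so that the deposited values are taken to be quantile-normalized, which hides a shift common to most genes. Of 45101 probe sets 34945 have 1 gene symbol in the platform annotation, and those with several or none were left out. For each of 18193 genes the brightest probe set, by its mean on the 12 arrays, was kept, and 9120 genes above 5 on at least 3 arrays were tested with limma 3.58.1 in R 4.3.3 (lmFit and eBayes on 4 group means, 8 residual degrees of freedom, Benjamini-Hochberg adjustment). Precision is limited by the small number of arrays. The fit was first tested on simulated data. Single quality values were compared by exact permutation tests.

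Named genes are called genes without overlap of arrays (the top 15 rises and the top 15 falls by size), up to 6 of each list by smallest p, the 5 with the smallest p of the strain difference in each direction, and a set fixed by name. Genes added after their values were seen are so marked. The genes and the 49 lists were chosen with earlier results of these data known. Alternatives covered the filter, a floor, the probe set rule, centring, the eBayes and weight settings, the replicate block, a 3' minus 5' covariate, the Balb/c arrays alone and each array left out. Promoter sequences are from RefSeq.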

Additional observations from a re-analysis of the deposited data

Results flagged for a closer look

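In 7 genes the irradiation effect in Balb/c differed from that in C57BL/6 by the test of the difference itself (limma, adjusted over 9120 genes). The difference, Balb/c minus C57BL/6 on the log2 scale, was 2.19 for Ifi44l, 2.88 for Il6, 2.47 for Ly6e and 1.15 for Chsy1, where the Balb/c change was the higher. It was -1.77 for Mcm5, -1.82 for Oasl2 and -4.42 for D630023F18Rik, where it was the lower. In Balb/c Oasl2 (2.23 to 3.11) and D630023F18Rik (2.23 to 2.33) lay at or near the bottom of the scale, so that their Balb/c change is poorly measured and these sizes are rough. The same holds for Ifi44l in C57BL/6, where its means lay close to the bottom of the scale. With the 3' minus 5' covariate Ifi44l (adjusted p = 0.0154), Il6 (adjusted p = 0.0461) and Ly6e (adjusted p = 0.00639) kept the call.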

How the results depend on the processing

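The main fit made 561 calls in Balb/c, 297 higher and 264 lower. Without the filter on dim probe sets the total was 283 (134 and 149). It was 104 (69 and 35) with the 3' minus 5' covariate and 364 (229 and 135) from the 6 Balb/c arrays alone. Of the 561 genes, 241, 98 and 306 were called again in these 3 fits. Leaving out 1 array at a time gave 218 to 592 calls, 124 to 312 higher and 94 to 280 lower. The 7 differences between strains became 2 without the filter, 3 with the covariate and 2 to 8 when 1 array was left out. The other alternatives kept the Balb/c count between 558 and 762. With the replicate number as a block the count was 580 (314 and 266), and 474 of the 561 genes were called again. The pairing rests on the number alone, since deviations of same-numbered arrays correlated at 0.06, 0.07 and 0.28. Of 133 named calls 41 were kept under each alternative run. The 3' minus 5' difference of 0.55 was 0.64 from Actb alone, 0.47 from Gapdh alone and 0.27 to 0.83 when 1 Balb/c array was left out. Values near 2.23, the lowest on the arrays, set only a bound on low genes. The cause of the moved counts was not tested.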
